A study of Mus musculus with 17 samples.

Results

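Colon tumors of Kit-W/sh mice were compared with colon tumors of Kit-B6 mice across an immuno-oncology gene panel. The comparison used every sample labelled as a tumor, which gave 12 of the 17 samples of the series, 6 of each genotype. Kit-B6 mice (C57BL/6) carry normal Kit, and Kit-W/sh mice are the W-sash strain, in which an inversion upstream of Kit lowers its expression while its coding sequence stays intact. Mice of both genotypes had received azoxymethane, a colon carcinogen, in 6 intraperitoneal injections over 6 weeks, and tumors were taken 18 weeks later at postnatal week 32. RNA from frozen tumors was read with a targeted amplicon panel (QIAseq), and the deposited values were counts for 988 genes. The other 5 samples were preneoplastic colon from week 14 (3 Kit-B6 and 2 Kit-W/sh) after 3 injections over 3 weeks.

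Mast cells are tissue-resident immune cells that need Kit, the receptor for stem cell factor, to survive, and W-sash mice are used because their adult tissues lack most mast cells. Kit also acts in interstitial cells of Cajal, melanocytes and blood cell precursors, so the strain is not altered in mast cells alone, and no tumor was restored with mast cells here. Neutrophils enter tissue when the chemokines CXCL1, CXCL2, CXCL3 and CXCL5 bind their receptor CXCR2, and the genes of these chemokines and of interleukin 1 and interleukin 6 are classical targets of the transcription factor NF-kB. The labels do not give sex, and they do not say whether all tumors came from different mice, and the p-values therefore reflect only how these tumors scattered, which may be partly technical. In bulk tumor RNA, fewer cells of a type and less RNA per cell cannot be told apart.

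The promoters of Cxcl1, Cxcl2 and Cxcl3 are shown because these chemokine genes were among those with the widest genotype difference, and all 3 were lowest in the same tumor of each genotype. The stretches are the 150 bases before each transcription start on the plus strand of chromosome 5 (RefSeq, build GRCm38.p6), at chr5:90891095-90891244 for Cxcl1, chr5:90903749-90903898 for Cxcl2 and chr5:90785951-90786100 for Cxcl3. Capitals mark every match to an NF-kB-like motif searched on both strands (GGGA, then any 2 bases, then TTCC), with overlapping matches joined.
Cxcl1: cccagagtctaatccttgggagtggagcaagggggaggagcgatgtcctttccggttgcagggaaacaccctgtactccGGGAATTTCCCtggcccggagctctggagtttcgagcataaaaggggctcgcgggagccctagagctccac
Cxcl2: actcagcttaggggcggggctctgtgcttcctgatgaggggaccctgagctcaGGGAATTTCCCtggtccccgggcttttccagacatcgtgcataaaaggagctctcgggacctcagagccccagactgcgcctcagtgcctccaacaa
Cxcl3: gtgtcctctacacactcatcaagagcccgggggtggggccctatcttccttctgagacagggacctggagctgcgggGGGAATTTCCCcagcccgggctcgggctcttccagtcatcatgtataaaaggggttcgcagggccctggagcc

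Each stretch held 1 site, GGGAATTTCCC, which began 71 bases before the start in Cxcl1, 97 in Cxcl2 and 73 in Cxcl3. The motif was found in 482 of 32851 RefSeq promoter windows of 300 bases (1.47%) and in 32 of the 945 windows of panel genes (3.39%). Among the 15 measured CXCR2 ligand and inflammatory cytokine genes with a window it was present in 5, which were Cxcl1, Cxcl2, Cxcl3, Il6 and Csf1. These matches describe letters in a window and do not measure binding.

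Totals per library ran from 616554 to 1399902 counts in Kit-B6 and 1049408 to 1262171 in Kit-W/sh tumors, and 895 to 922 genes had a count in each library. After a filter on low counts 799 genes were tested, and the 189 left out included 26 with no count in any tumor. Levels are CPM (counts scaled to a common library total) corrected by the trimmed mean of M values (TMM), and fold changes are log2 Kit-W/sh over Kit-B6 with their standard errors from edgeR. Because amplicons differ in efficiency, levels are compared between tumors and not between genes. The epithelial gene Epcam was at 24150 to 36780 CPM among Kit-B6 and 23760 to 30500 CPM among Kit-W/sh tumors, in keeping with the tissue label.

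The library labelled Kit-W/sh tumor 2 went against its label: it held 492 CPM of Cpa3 and 57.8 CPM of Tpsab1, both mast cell proteases, where the other 5 Kit-W/sh tumors had at most 10.3 and 2.37 CPM. Its log2 profile was nearest to Kit-B6 tumor 2 (r = 0.96 across genes, which are not independent replicates). Its median correlation was 0.93 with the Kit-W/sh and 0.94 with the Kit-B6 tumors. Results are therefore given with and without it, and it is called the doubted library below. Kit-B6 tumor 4 also stood apart, with a median correlation of 0.895 with its own group. Among the 6 Kit-B6 tumors it had the lowest level in 25.8% of tested genes and the highest in 29.8%. It had 15770 CPM of Car4 (a carbonic anhydrase of mature colonocytes) and 3606 CPM of Chgb (chromogranin B of enteroendocrine cells), against medians of 2171 and 595 CPM in the 6 Kit-B6 tumors. These values stand beside its low levels of inflammatory genes below, and their part in the results was not tested.

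No gene passed the threshold in the 12 tumors: edgeR called 0 of 799 (0%), and the smallest adjusted p was 0.154, shared by 23 genes. An unadjusted p under 0.05 was reached by 109 genes (13.6%), 66 of them on the higher side for Kit-W/sh (8.26%) and 43 on the lower (5.38%), where 40 would be expected under no difference. DESeq2 called 27 genes (3.35%), 20 higher (2.48%) and 7 lower (0.868%), and limma voom with sample quality weights called 0. The median log2 fold change over all tested genes was -0.01, and 385 of the 799 lay above 0 (48.2%). In 5 genes (0.626%) every Kit-W/sh tumor lay above every Kit-B6 tumor. These were the neutrophil receptor Cxcr2, the chemokine Ccl4, the chitinase-like protein Chil1, granzyme B (Gzmb) and the lymphocyte adaptor Lime1.

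Leaving out the library labelled Kit-W/sh tumor 2 brought many genes to the edge of the threshold without a call. EdgeR again called 0 of 804 genes (0%), with a smallest adjusted p of 0.05172 shared by 24 genes, and 42 genes were under 0.1. The unadjusted p was under 0.05 in 155 genes (19.3%), 86 higher (10.7%) and 69 lower (8.58%), and 103 of the 109 genes at that level in 12 tumors were among them. DESeq2 called 73 genes without this library (8.19%), 40 higher (4.49%) and 33 lower (3.7%), which included all 27 of its calls in 12 tumors. Limma voom called 27 (3.36%), of which 16 were higher (1.99%) and 11 lower (1.37%), and 26 of these were among the DESeq2 calls. The number of genes with no overlap between genotypes was 31 (3.86%), 23 higher (2.86%) and 8 lower (0.995%). Of all genes 46.5% lay above 0 without this library.

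**Figure D1:**
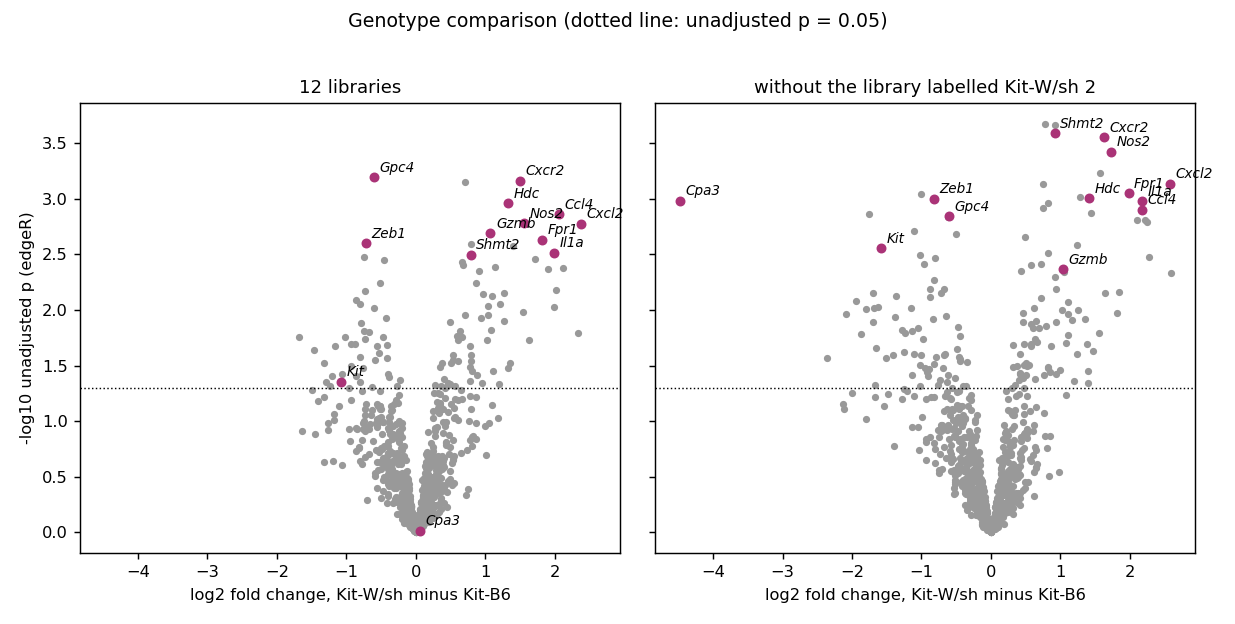
Log2 fold change (x axis) against -log10 of the unadjusted edgeR p (y axis) for each tested gene, in 12 tumors (left) and without the library labelled Kit-W/sh tumor 2 (right), with some genes the text names in purple. Cpa3 moves from a log2 fold change of 0.06 to -4.48 when that library is left out, while Cxcr2 stays on the higher side at 1.49 and 1.63.

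No mast cell gene separated the genotypes in 12 tumors, and the library labelled Kit-W/sh tumor 2 had the highest Kit-W/sh level of 9 of the 10 measured. Of 10 measured mast cell genes 7 could be tested, and 5 of these were on the lower side for Kit-W/sh with a list median of -0.29. Kit was at 97.8, 160 and 503 CPM among Kit-B6 tumors (lowest, median and highest, as in all such triplets below) and at 52, 83.3 and 276 CPM among Kit-W/sh tumors. The groups overlapped, with the Kit-W/sh maximum in the doubted library. The log2 fold change of Kit was -1.08 ± 0.48 (unadjusted p = 0.0441, adjusted p = 0.363), and without Kit-B6 tumor 4, which had the highest Kit, it was -0.74 ± 0.44.

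Cpa3, which encodes mast cell carboxypeptidase, was at 12, 49.7 and 270 CPM among Kit-B6 tumors. In the other 5 Kit-W/sh tumors it ranged from 0 to 10.3 CPM, below every Kit-B6 tumor, with a floor of 3 counts at 2.14 to 4.87 CPM depending on the library. The tryptase Tpsb2 was at 15.2, 27.4 and 291 CPM among Kit-B6 and at 0.867, 16.6 and 198 CPM among Kit-W/sh tumors, so its groups overlapped with or without the doubted library, whose value was the 198 CPM. Within Kit-B6 the protease levels were also uneven, and tumor 5 alone carried the maximum of Cpa3, Tpsb2 and the prostaglandin D synthase Hpgds (555 CPM against a median of 172). Since the library was doubted because of these transcripts, a difference in them without it is fixed in part by that choice, and the values are a description. The log2 fold changes without it were -4.48 ± 1.05 for Cpa3, -2.37 ± 0.94 for Tpsb2, -1.58 ± 0.42 for Kit and -0.96 ± 0.40 for Hpgds. In the fit without Kit-B6 tumor 5 instead, Hpgds was at -0.19.

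Ms4a2, a chain of the IgE receptor, was at most 4.55 CPM among Kit-B6 tumors and no more than 2.37 CPM in the other 5 Kit-W/sh tumors, against 29.7 CPM in the doubted library. Hdc, which makes histamine and is expressed by mast cells and by other myeloid cells, went the other way from the proteases. It was at 43.8, 61.1 and 118 CPM among Kit-B6 and 114, 166 and 326 CPM among Kit-W/sh tumors. Only Kit-B6 tumor 5 exceeded the lowest Kit-W/sh tumor. The log2 fold change was 1.33 ± 0.32 (edgeR adjusted p = 0.154), and the exact permutation test of mean log2(CPM + 1), two-sided and not adjusted over the 10 mast cell genes tested this way, gave p = 0.00433, where 0.00216 is the smallest possible. The vesicular monoamine transporter Slc18a2 and the transcription factor Gata2 overlapped fully, at 3.96 to 23.1 and 31.2 to 129 CPM among Kit-W/sh tumors against 4.38 to 16.7 and 31.2 to 144 CPM among Kit-B6 tumors.

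**Figure D2:**
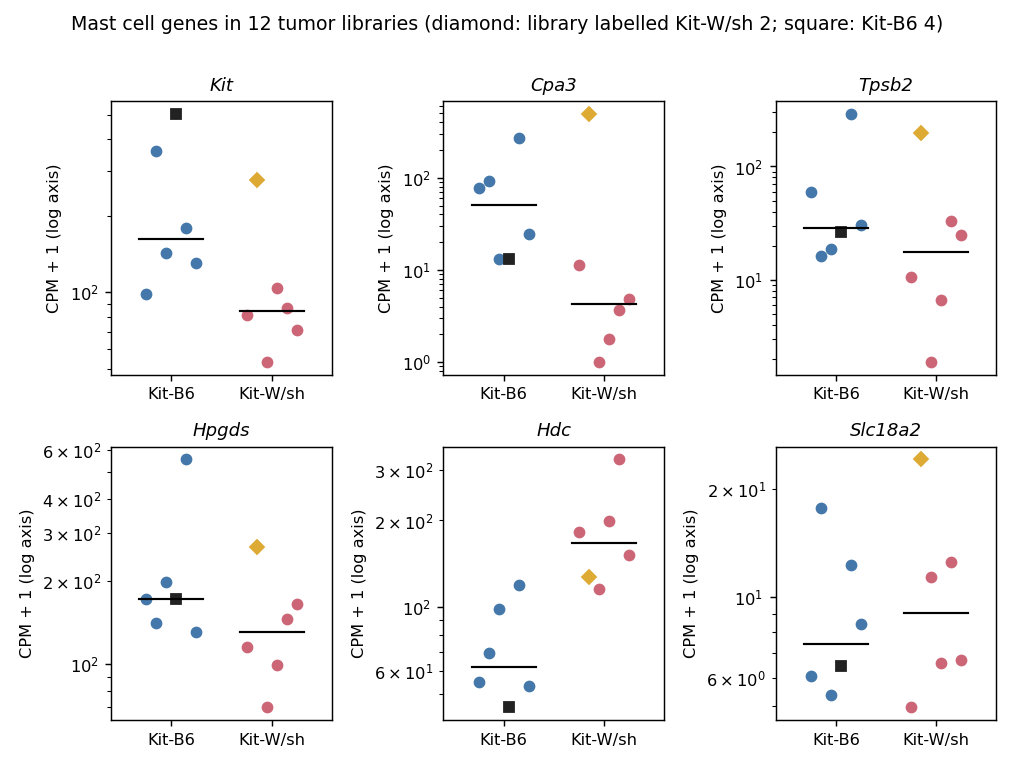
CPM + 1 on a log axis for 6 mast cell genes in each of the 12 tumors, by genotype, with black lines at the group medians, a diamond for the library labelled Kit-W/sh tumor 2 and a square for Kit-B6 tumor 4. The diamond lies above the other Kit-W/sh tumors for Kit, Cpa3, Tpsb2, Hpgds and Slc18a2 but not for Hdc, where 5 of 6 Kit-B6 tumors lie below every Kit-W/sh tumor.

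The chemokines that bind CXCR2 averaged higher in Kit-W/sh tumors. Of the 6 tested genes on the list 5 were on the higher side with a median of 1.25, and 3 had an unadjusted p under 0.05. The remaining gene, Pf4 (platelet factor 4, not itself a CXCR2 ligand), was at -0.16 ± 0.25, and Cxcl15 was measured but too low to test. Beside this and the lists below, 48.2% of all genes were higher in 12 tumors and 13.6% had an unadjusted p under 0.05. Cxcl2 was at 41.6, 388 and 953 CPM among Kit-B6 tumors and at 624, 1819 and 5575 CPM among Kit-W/sh tumors. The lowest Kit-W/sh value was in the doubted library, and without it the groups did not overlap. Its log2 fold change was 2.38 ± 0.61, and 2.58 ± 0.58 without that library (adjusted p = 0.154 and 0.05172).

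Cxcl1, whose promoter is shown above, was at 37.2, 472 and 726 CPM among Kit-B6 and at 283, 1850 and 3145 CPM among Kit-W/sh tumors. Cxcl3 was at 12, 208 and 485 CPM and at 153, 787 and 1190 CPM. For both genes Kit-B6 tumor 4 was the lowest of all, the library labelled Kit-W/sh tumor 2 was the only Kit-W/sh tumor inside the Kit-B6 range, and the groups did not overlap without it. Their log2 fold changes were 2.02 ± 0.63 and 1.63 ± 0.61 in 12 tumors and 2.25 ± 0.56 and 1.84 ± 0.57 without the doubted library. Leaving out Kit-B6 tumor 4 instead gave 1.77 ± 0.52 for Cxcl1, 2.12 ± 0.49 for Cxcl2 and 1.36 ± 0.44 for Cxcl3.

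Cxcl5, another ligand of the same receptor, was at 748, 5390 and 6918 CPM among Kit-B6 and at 4368, 10100 and 11940 CPM among Kit-W/sh tumors, with a log2 fold change of 0.86 ± 0.42. Its groups overlapped, and the 748 CPM again belonged to Kit-B6 tumor 4. Ppbp, a platelet-derived ligand, overlapped fully, at 54.6 to 317 CPM against 62.8 to 846 CPM (0.87 ± 0.56), and without Kit-W/sh tumor 5, which held the 846 CPM, its value was 0.15.

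Genes of the neutrophil list were on the higher side for Kit-W/sh tumors in all 9 tested members, with a median of 0.77 and 4 at an unadjusted p under 0.05. Not all 9 mark neutrophils alone, and Itgam and Fcgr3 are also on the macrophage list. Ceacam10 was at 3177 to 6368 CPM in preneoplastic colon, where Cxcr2 was at no more than 2.41 CPM. Without Kit-B6 tumor 4 all 9 were again on the higher side with a median of 0.57, and without the library labelled Kit-W/sh tumor 2 the median was 0.83. The other 2 measured members, Cxcr1 and the granule enzyme Mpo, were too low to test. Cxcr2, the receptor of the chemokines above, was at 31.7, 101 and 112 CPM among Kit-B6 and at 130, 210 and 416 CPM among Kit-W/sh tumors, with no overlap. Its log2 fold change was 1.49 ± 0.34 in 12 tumors and 1.29 ± 0.29 without Kit-B6 tumor 4 (adjusted p = 0.154 and 0.173).

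Fpr1 and Fpr2 encode receptors for formylated bacterial peptides that guide neutrophils. Fpr1 was at 2.19, 26.2 and 36.2 CPM among Kit-B6 and at 30.6, 85.6 and 128 CPM among Kit-W/sh tumors, and the doubted library was the only Kit-W/sh tumor within the Kit-B6 range (1.81 ± 0.48). Fpr2 was at 15.3, 96.3 and 153 CPM against 121, 187 and 239 CPM (1.08 ± 0.39), and its groups too were separate without that library. Csf3r, through which granulocyte colony-stimulating factor acts, was at 31.7 to 131 CPM against 113 to 239 CPM and overlapped (0.77 ± 0.32).

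Other members of the list overlapped between genotypes. The integrin Itgam was at 48.1 to 255 CPM among Kit-B6 and 192 to 262 CPM among Kit-W/sh tumors (0.44 ± 0.29), and the Fc receptor Fcgr3 at 184 to 790 and 473 to 626 CPM (0.35 ± 0.29). The decoy receptor Il1r2, which binds interleukin 1 without signalling, gave 0.60 ± 0.34, and the adhesion ligand Selplg gave 0.30 ± 0.23. Ceacam10, a family in which amplicons of near-identical relatives can share reads, gave 0.87 ± 0.50. Selp, the P-selectin by which activated endothelium and platelets catch neutrophils, is on the endothelial list and not on the neutrophil list. Of 7 tested endothelial genes 3 were on the higher side with a median of -0.28, and Selp alone had an unadjusted p under 0.05. Selp was at 24.9, 68.7 and 107 CPM among Kit-B6 and at 56.2, 190 and 245 CPM among Kit-W/sh tumors. The low value in Kit-W/sh belonged to the doubted library, and the fold change was 1.27 ± 0.40 with it and 1.45 ± 0.35 without it.

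**Figure D3:**
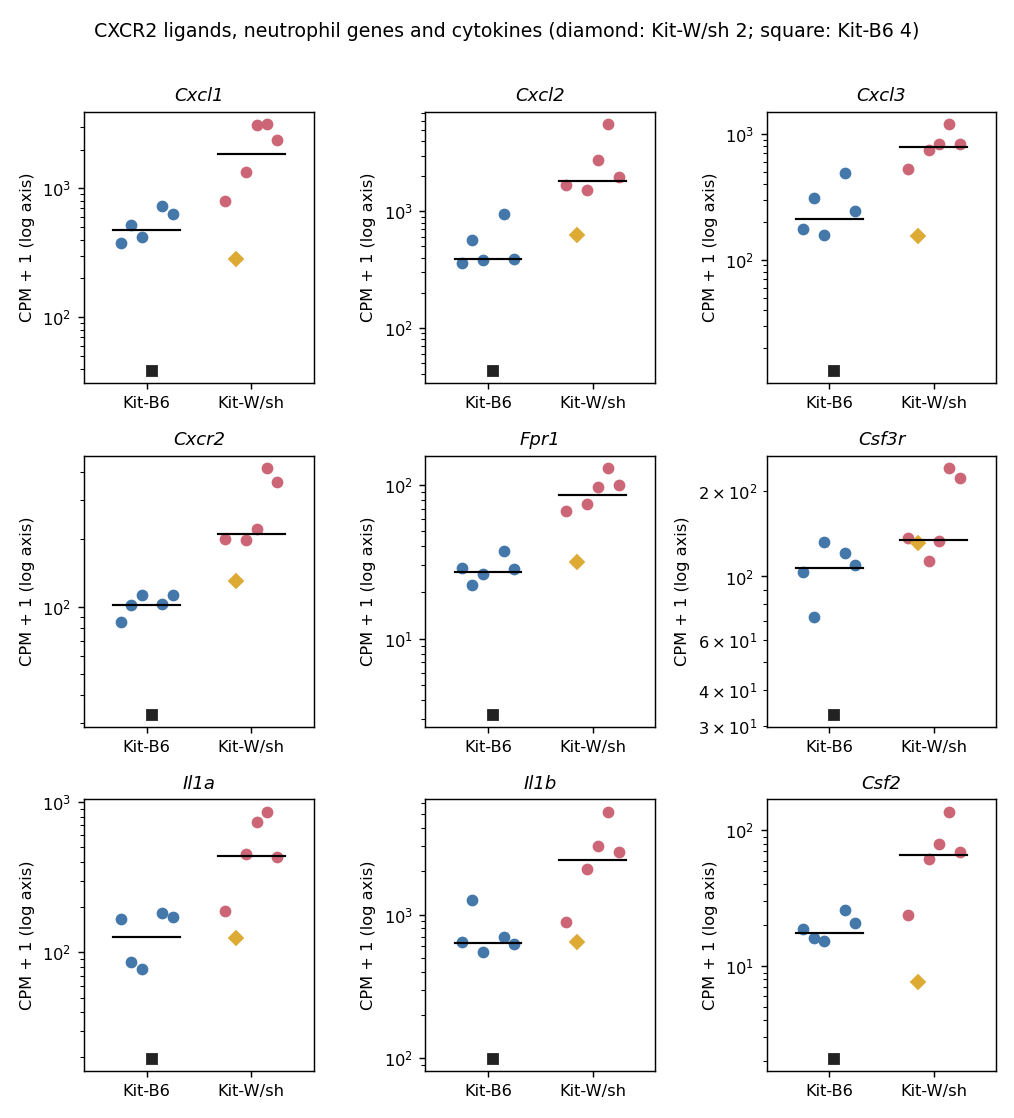
CPM + 1 on a log axis for 3 CXCR2 ligands, 3 neutrophil receptors and 3 cytokines in each of the 12 tumors, by genotype, with black lines at the group medians. The square (Kit-B6 tumor 4) is the lowest tumor in each of the 9 panels, and the diamond (the doubted library) is the lowest Kit-W/sh tumor in each panel except Csf3r.

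Inflammatory cytokines had the largest list median, 1.56, with 7 of 9 tested genes on the higher side for Kit-W/sh tumors and all 7 at an unadjusted p under 0.05. At that level were also 7 of 9 without the doubted library (median 1.73), and 6 of 9 without Kit-B6 tumor 4 (median 1.38). Il1b, which encodes the secreted interleukin 1 beta, was at 98.5, 633 and 1255 CPM among Kit-B6 and at 645, 2405 and 5189 CPM among Kit-W/sh tumors. Both the doubted library and Kit-W/sh tumor 1 lay within the Kit-B6 range. The fold change was 1.91 ± 0.56 in 12 tumors and 2.11 ± 0.52 without the library.

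Il1a, the cell-associated form of interleukin 1, was at 18.6, 126 and 182 CPM among Kit-B6 and at 123, 440 and 863 CPM among Kit-W/sh tumors (1.99 ± 0.55). Il33, an alarmin of epithelial and stromal cells that also activates mast cells, was at 179, 476 and 719 CPM against 461, 937 and 1799 CPM (1.14 ± 0.33). In both genes the only Kit-W/sh tumor inside the Kit-B6 range was the doubted library. Il18, the family member made mainly by epithelium, was on the lower side, at 2310 to 5349 CPM among Kit-B6 and 1468 to 4348 CPM among Kit-W/sh tumors, and its groups overlapped (-0.47 ± 0.27).

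Il6, which signals through STAT3, was at 4.38, 45.7 and 148 CPM among Kit-B6 tumors and at 17.4, 275 and 688 CPM among Kit-W/sh tumors. The lowest Kit-W/sh value was in the doubted library, and the groups overlapped with or without it (2.34 ± 0.85). Csf2, the granulocyte-macrophage colony-stimulating factor, was at 1.09, 16.4 and 24.9 CPM against 6.61, 64.5 and 136 CPM (1.99 ± 0.66), and only 1.73 ± 0.59 without Kit-B6 tumor 4. Nos2, the inducible nitric oxide synthase, was at 63.5, 163 and 212 CPM against 161, 441 and 811 CPM (1.56 ± 0.40). Tnf was at 61.3 to 292 CPM against 173 to 515 CPM (0.88 ± 0.38), and Csf1, the macrophage growth factor, overlapped fully (-0.13 ± 0.43).

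Type 17 genes were mixed: 5 of 8 tested genes were on the higher side with a median of 0.06. Il17a, the cytokine that induces CXCR2 ligands in epithelium, was at 5.47, 17.9 and 48.5 CPM among Kit-B6 and at 19.8, 83.3 and 204 CPM among Kit-W/sh tumors (2.12 ± 0.61, adjusted p = 0.154). Its groups overlapped with or without the doubted library, which had 48.7 CPM. Il22, chosen for mention after its values were seen and too low to test, was at 0 to 4.55 CPM against 0 to 23.4 CPM.

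Chemokines for monocytes and lymphocytes were mixed, with 8 of 14 tested genes on the higher side and a median of 0.27, which became -0.08 without the doubted library. Ccl4, which attracts monocytes and T cells, was at 9.85, 56 and 82.9 CPM among Kit-B6 and at 88.6, 161 and 463 CPM among Kit-W/sh tumors, with no overlap (2.06 ± 0.51). Its relative Ccl3 was at 38.3, 156 and 418 CPM against 260, 489 and 1308 CPM and overlapped (1.55 ± 0.52). The monocyte chemokines Ccl2 and Ccl7 gave 1.19 ± 0.54 and 1.19 ± 0.66, and Ccl7 was at 0.43 without Kit-W/sh tumor 3 and 1.71 without Kit-B6 tumor 6. Xcl1, made by activated killer cells, was at 14.2 to 25.2 CPM among Kit-B6 tumors and at 1.9 to 12.1 CPM in the other 5 Kit-W/sh libraries, with 50.4 CPM in the doubted library, so its fold change was -0.57 ± 0.65 with that library and -1.75 ± 0.43 without it. Of the tested receptors for these chemokines only Ccr10, carried by antibody-secreting cells and skin-homing T cells, had an unadjusted p under 0.05 (1.71 ± 0.48), at 7.66 to 54.6 CPM among Kit-B6 and 42.5 to 123 CPM among Kit-W/sh tumors.

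In the tumor necrosis factor superfamily 13 of 19 tested genes were on the higher side with a median of 0.23, 6 of them and 1 on the lower side at an unadjusted p under 0.05. Tnfrsf1b, which encodes TNF receptor 2, had narrow groups at 461, 592 and 719 CPM among Kit-B6 and 684, 1034 and 1142 CPM among Kit-W/sh tumors. The doubted library, at 684 CPM, was the only overlap, and the fold change was 0.70 ± 0.16 (0.78 ± 0.15 without it). The costimulatory ligand Tnfsf9 was at 83.4 to 170 CPM against 123 to 529 CPM (1.10 ± 0.35) and its receptor Tnfrsf9 at 20.8 to 193 CPM against 120 to 433 CPM (1.11 ± 0.47). Tnfsf14 (LIGHT) gave 0.94 ± 0.32 and Tnfsf11 (RANK ligand) 1.32 ± 0.56, both with overlapping groups. The 1 gene at that level on the lower side was Tnfsf4 (OX40 ligand), at -1.24 ± 0.57, and at -1.51 without the doubted library.

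Genes of Toll-like receptor signalling and NF-kB were as a list centred near all genes, with 7 of 12 genes on the higher side and a median of 0.07. Its leading genes were Nfkbia, the inhibitor that NF-kB itself induces, and Cd14, the co-receptor for bacterial lipopolysaccharide. Nfkbia was at 1359, 1729 and 3028 CPM among Kit-B6 and at 1864, 3219 and 4472 CPM among Kit-W/sh tumors (0.71 ± 0.24). Cd14 was at 972, 1044 and 1830 CPM against 897, 2164 and 2640 CPM (0.67 ± 0.25), and its lowest value of all 12 was in the doubted library.

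Macrophage genes were evenly split, with 7 of 14 tested genes on each side and a median of 0.03. The macrophage growth factor receptor Csf1r was at 185, 463 and 822 CPM among Kit-B6 and at 331, 356 and 532 CPM among Kit-W/sh tumors (-0.30 ± 0.29). Without Kit-B6 tumor 4, which had the lowest Csf1r, it was -0.50 ± 0.22, and the list median was -0.14. Cd80, a costimulatory ligand of activated antigen-presenting cells, was at 10.9 to 39.4 CPM against 37.5 to 86.7 CPM (1.05 ± 0.36). Chil1, made by activated macrophages, neutrophils and injured epithelium, was low in all tumors, at 2.19, 12.2 and 22.6 CPM among Kit-B6 and 24, 29 and 34.7 CPM among Kit-W/sh, with no overlap (1.21 ± 0.39).

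The arginases, which deplete the amino acid that T cells need, differed from each other. Arg2 was at 78.8, 157 and 312 CPM among Kit-B6 and at 228, 303 and 551 CPM among Kit-W/sh tumors (1.04 ± 0.34). Arg1, which was chosen for mention after its values were seen, overlapped fully at 449 to 5380 CPM against 1438 to 4074 CPM (0.19 ± 0.45). The difference between the arginases was not tested.

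None of the T cell genes passed the test, with 9 of 14 tested genes on the higher side and a median of 0.15, and 4 of 14 and -0.19 without the doubted library. None reached an unadjusted p of 0.05 in either fit. That library had the highest summed level of the 21 measured T cell genes, 1850 CPM, where the other Kit-W/sh tumors had 941 to 1070 CPM and Kit-B6 tumors 791 to 1270 CPM. Lck, the kinase of the T cell receptor, had the smallest p of the list (0.65 ± 0.31, unadjusted p = 0.0529). Gzmb, the granzyme B of cytotoxic cells, was at 12, 25.8 and 34.9 CPM among Kit-B6 and at 41.8, 52 and 61 CPM among Kit-W/sh tumors, without overlap (1.07 ± 0.28). Of the cytotoxic list, Gzmb included, 8 of 11 tested genes were on the higher side with a median of 0.07. Without the doubted library 3 of 11 were, with a median of -0.24. Gzmb was the only one at an unadjusted p under 0.05 on the higher side in both fits. On the lower side 3 genes reached that level without the doubted library, Xcl1 (-1.75), Klrk1 (-1.02) and Klrd1 (-0.79). Lime1 was at 33.9 to 60.6 CPM among Kit-B6 and 62 to 186 CPM among Kit-W/sh tumors (0.96 ± 0.30).

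All 7 tested B cell genes averaged lower in Kit-W/sh (median -0.40), but none reached an unadjusted p of 0.05. Kit-B6 tumor 2 had 179 CPM of the signalling scaffold Bank1 against a group median of 19.8 CPM, and 269 CPM of Ms4a1 (the B cell surface protein CD20, too low in the other tumors to test) against 7.5 CPM. Bank1 gave -1.41 ± 0.71 with that tumor and -0.19 without it. The antibody light chain Igkc, a plasma cell product, ranged from 1215 to 42340 CPM among Kit-B6 and from 9990 to 46450 CPM among Kit-W/sh tumors (1.01 ± 0.75, and 1.96 without Kit-B6 tumor 2).

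Interferon, antigen presentation and proteasome genes lay close to the average of all genes in 12 tumors, except MHC class II. Of 18 tested type I interferon response genes 6 were on the higher side in 12 tumors (median -0.14) and none had an unadjusted p under 0.05. Irf7, which amplifies interferon production, was at 425, 1003 and 2202 CPM among Kit-B6 and at 291, 622 and 1469 CPM among Kit-W/sh tumors (-0.76 ± 0.45). MHC class I genes were split 9 to 12 (median -0.04), and 6 to 15 without the doubted library (median -0.21). Their light chain B2m gave 0.08 ± 0.26, or -0.17 ± 0.21 without the doubted library, which had the highest B2m at 26830 CPM. Of 7 tested MHC class II genes 5 were on the higher side (median 0.48), with none at an unadjusted p of 0.05. The 44 tested proteasome genes were centred at 0.02 with 25 on the higher side.

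**Figure D4:**
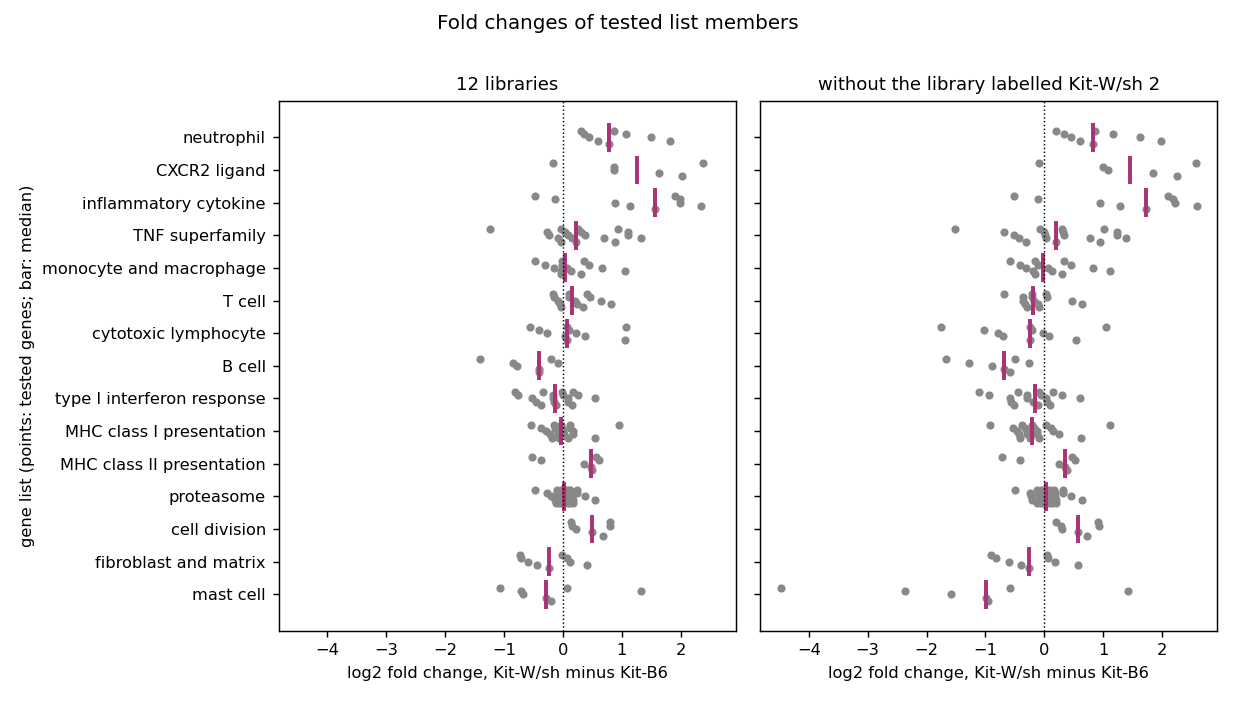
Log2 fold changes (x axis) of the tested members of 15 gene lists (rows), each point a gene and each bar the median, in 12 tumors (left) and without the library labelled Kit-W/sh tumor 2 (right). The medians of inflammatory cytokines (1.56 and 1.73), CXCR2 ligands (1.25 and 1.46) and neutrophil genes (0.77 and 0.83) lie farthest to the right in both panels.

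Cell division genes averaged higher in Kit-W/sh tumors, by less than the inflammatory cytokines. All 7 tested genes of the cell division list were on the higher side with a median of 0.49, and 4 had an unadjusted p under 0.05 (3 without Kit-B6 tumor 4, median 0.37). Hells, a chromatin remodeler needed for DNA methylation in dividing cells, was at 372, 385 and 539 CPM among Kit-B6 and at 382, 726 and 1003 CPM among Kit-W/sh tumors. The doubted library (382 CPM) lay among the Kit-B6 tumors, Kit-W/sh tumor 1 (516 CPM) lay below Kit-B6 tumor 3 (539 CPM), and the fold change was 0.80 ± 0.22 with that library and 0.93 ± 0.18 without it. Bora, a mitotic kinase activator, was at 83.4 to 187 CPM against 170 to 244 CPM (0.68 ± 0.19). The survivin gene Birc5 gave 0.49 ± 0.22, and the proliferation marker Mki67 overlapped fully (0.22 ± 0.26).

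Shmt2, a mitochondrial enzyme that feeds 1-carbon units into nucleotide synthesis, was at 577, 750 and 981 CPM among Kit-B6 and at 699, 1212 and 1833 CPM among Kit-W/sh tumors (0.79 ± 0.22). Its groups did not overlap without the doubted library. Atf4, the transcription factor of the amino acid response that controls Shmt2, was at 1361, 1576 and 2055 CPM against 1758, 2494 and 3538 CPM (0.66 ± 0.19). The splicing factor Srsf7 was at 275 to 478 CPM against 543 to 762 CPM in the other 5 Kit-W/sh libraries, with 268 CPM in the doubted library, and gave 0.61 ± 0.23 with it and 0.76 ± 0.17 without it. Rgs16, a regulator of G protein signalling downstream of chemokine receptors, was at 139, 182 and 261 CPM against 187, 365 and 1091 CPM (1.40 ± 0.38).

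The averages that were lower in Kit-W/sh tumors differed by less than those of the cytokines. In the fibroblast and matrix list 6 of 9 tested genes were lower with a median of -0.24, and 8 of 9 with -0.44 without Kit-B6 tumor 4. Gpc4, a cell surface heparan sulfate proteoglycan, was at 773, 1135 and 1321 CPM among Kit-B6 and at 628, 718 and 828 CPM among Kit-W/sh tumors. It had the smallest unadjusted edgeR p of the 12-tumor fit (-0.60 ± 0.13), and 1 Kit-B6 tumor lay within the Kit-W/sh range. Zeb1, a transcription factor of mesenchymal cells, was at 156, 214 and 282 CPM against 104, 124 and 174 CPM (-0.71 ± 0.19) and separated the groups without the doubted library.

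Erbb2, the receptor tyrosine kinase HER2, was at 527, 794 and 1334 CPM among Kit-B6 and at 414, 466 and 578 CPM among Kit-W/sh tumors. The fold change was -0.75 ± 0.21, and -0.58 ± 0.16 without Kit-B6 tumor 4, which held the 1334 CPM. Cat, which encodes the peroxide-degrading catalase, was at 934 to 1291 CPM against 689 to 990 CPM (-0.45 ± 0.13). The lipid phosphatase Inpp4b, an antagonist of PI3 kinase signalling, was at 152 to 374 CPM against 109 to 168 CPM in the other 5 Kit-W/sh libraries and 292 CPM in the doubted library (-0.74 ± 0.27, with an adjusted p of 0.05172 by edgeR without it).

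The transcription factors Foxn3 and Mef2c were likewise highest among Kit-W/sh tumors in that library. Foxn3 was at 496 to 663 CPM among Kit-B6 and 290 to 415 CPM in the other 5 Kit-W/sh libraries, against 521 CPM in the library (-0.51 ± 0.16, and -0.61 ± 0.15 without it). Mef2c was at 94.1 to 223 CPM and at 43.4 to 72.8 CPM, against 137 CPM in the library (-0.81 ± 0.33, and -1.11 ± 0.28 without it). Further genes on this side were the cold-inducible RNA-binding protein Rbm3 (-0.73 ± 0.23), the cytoskeletal protein Kank2 (-0.87 ± 0.28) and the membrane protein Emp1 (-0.81 ± 0.26).

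Lipid mediator genes leaned to the lower side in 6 of 9 tested members (median -0.40). Ptgs1, the constitutive cyclooxygenase, was at 318, 450 and 874 CPM among Kit-B6 and at 189, 280 and 463 CPM among Kit-W/sh tumors (-0.80 ± 0.28). Hpgd, which degrades prostaglandins, was at 512 to 4672 CPM against 278 to 2762 CPM, with the highest value of each genotype in Kit-B6 tumor 4 and in the doubted library (-0.94 ± 0.62). Il15, a growth factor of natural killer and memory T cells, was at 120 to 284 CPM against 82.6 to 189 CPM (-0.74 ± 0.27).

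The amino acid and one-carbon list, to which Shmt2 also belongs, had 7 of 10 tested genes on the higher side (median 0.26), and 4 were at an unadjusted p under 0.05 (40%, against 13.6% of all genes). The Ceacam adhesion molecules had 2 of 7 on the higher side (median -0.20), the germline and melanocyte antigens 1 of 5 (-0.39) and the endothelin system 1 of 5 (-0.17), with 1, 1 and 0 at that level.

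Across settings that called any gene without the doubted library, 10 genes were shared. These settings were DESeq2, limma voom, a fit that added the preneoplastic samples, Kit-B6 tumors 4 and 5 summed as 1 library (the names of their deposited tables share a stem that no other Kit-B6 tumor has, and whether they came from 1 mouse is not stated), and edgeR without either Kit-B6 tumor 4 or Kit-W/sh tumor 1. Of the 77 genes called under at least 1 of these 6 settings, the 10 called under all were Cxcl1, Cxcl2, Cxcr2, Fpr1, Il1b, Il33, Tnfrsf1b, Hells and Shmt2 on the higher side and Cpa3 on the lower, where the call of Cpa3 is fixed in part by the choice of the library left out. The edgeR fit of the same 11 tumors called none of them. Nor did edgeR with RLE size factors, unscaled totals, other count filters or the replicate block. The 6 settings were picked because they called genes. The library left out had a median correlation of 0.93 with the Kit-W/sh and 0.94 with the Kit-B6 tumors. Leaving it out can therefore widen differences in the other 9 genes too, and the shared calls are a description.

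Most tested genes spread more widely among Kit-B6 than among Kit-W/sh tumors. The median SD of log2(CPM + 1) over tested genes was 0.49 in Kit-B6 and 0.35 in Kit-W/sh tumors, and 587 of 799 genes (73.5%) had the larger SD in Kit-B6. Without Kit-B6 tumor 4 the Kit-B6 median was 0.42 and the share 63.1%. Leaving out the doubted library lowered the Kit-W/sh median to 0.30 and brought the share to 79.7%, and with both left out the share was 70.3%. An SD above 1 was found in 122 genes in Kit-B6 and in 55 in Kit-W/sh. These genes share their libraries, so the counts carry no test.

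The genes that varied most within Kit-B6 included Scg2, Car4, Sult1c2, Igkc, Cxcl9 and Cxcl3. Car4 ranged from 191 to 15770 CPM among Kit-B6 tumors (SD 2.65 on the log2 scale) and from 102 to 5129 CPM among Kit-W/sh tumors (SD 1.88). The sulfotransferase Sult1c2 of the upper crypt ranged from 15.1 to 1119 CPM and from 9.73 to 242 CPM, and the neuroendocrine granule protein Scg2 from 0 to 193 CPM and from 3.99 to 54.5 CPM. In Kit-B6 the high tumors for Car4 and Sult1c2 were 4, 2 and 3, and in Kit-W/sh the highest was the doubted library. The lists with the widest spread in Kit-B6 were CXCR2 ligands (median SD 1.38) and other chemokines (1.15), against 0.24 for proteasome genes.

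Within Kit-W/sh the widest spread was that of Cpa3 (SD 3.19) and Tpsb2 (2.29), both through the doubted library, followed by Il6 (2.02). The first principal component of the 12 tumors carried 36.9% of the variance, with Il6, Cxcl1, Cxcl2, Cxcl3 and Csf2 weighing most on one side and Sult1c2, Chgb and Scg2 among the heaviest on the other. Kit-B6 tumor 4 lay at one end (28.06) and Kit-W/sh tumors 4, 5 and 6 at the other (-11.94, -16.01 and -8.09), while Kit-W/sh tumors 1 and 3 lay at -1.29 and -4.68 and the other Kit-B6 tumors between -4.63 and 9.14. The second component (17.2%) was highest in the doubted library (13.97) and Kit-B6 tumor 2 (12.33).

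**Figure D5:**
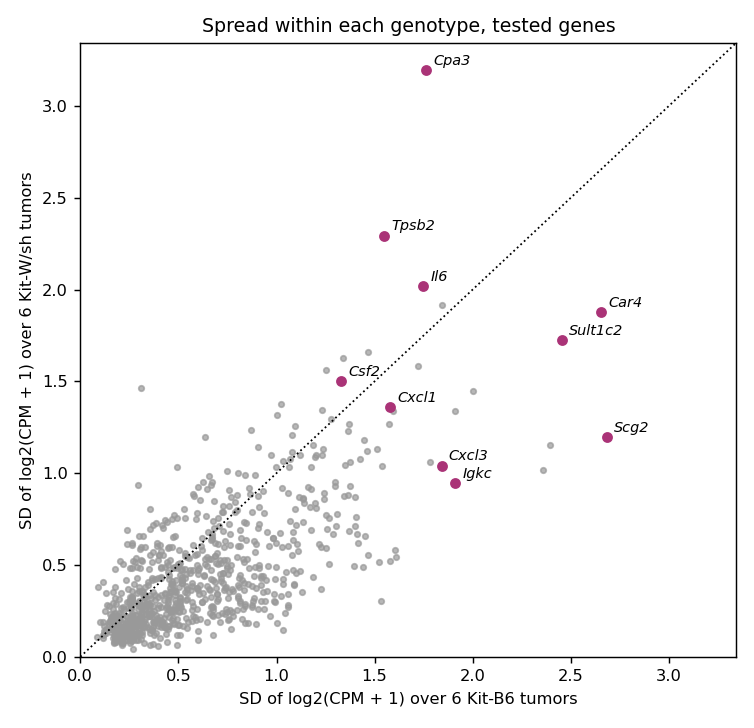
SD of log2(CPM + 1) over the 6 Kit-B6 tumors (x axis) against the 6 Kit-W/sh tumors (y axis) for each tested gene, with the dotted line at equal spread. Most points lie below the line (587 of 799), Cpa3 and Tpsb2 lie above it, and Car4, Sult1c2 and Scg2 lie farthest to the right.

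For the same genes the preneoplastic samples gave genotype differences that are set beside those of tumors. Within that stage edgeR called 1 of 777 genes (0.129%) from 3 against 2 samples. The direct test of whether a difference changed between stages called 0 of 869 genes with edgeR (0%), with 63 at an unadjusted p under 0.05 (7.25%). Cxcl1 was on the higher side for Kit-W/sh at both stages, by 2.49 ± 0.56 in preneoplastic colon. Cxcl2 was at 17.4 and 16.9 CPM in preneoplastic Kit-W/sh colon and at no more than 3.23 CPM in Kit-B6, too few counts for a fold. Kit was on the lower side at both (-1.68 ± 0.35 in preneoplastic colon). Nfkbia and Srsf7 gave 0.79 ± 0.17 and 0.71 ± 0.17 before tumors formed, close to their tumor values.

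Other genes had smaller or opposite averages in preneoplastic colon. Il18 was at 1.18 ± 0.39 there and at -0.47 ± 0.27 in tumors (unadjusted p = 0.0046 and adjusted p = 0.66 for the change). Gpc4 was at 0.39 ± 0.37 there, with an unadjusted p of 0.009 for the change, and Il33 at -0.74 ± 0.60, with 0.019. Hells, Shmt2 and Atf4 were at 0.25 ± 0.40, 0.13 ± 0.19 and 0.00 ± 0.16 in preneoplastic colon. Cxcr2, Fpr1, Il6 and Csf2 were too low there to be tested within that stage. The stages differ in age, injections and tissue, which cannot be told apart.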

How the data were processed

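The authors deposited 1 table of counts per sample, with 993 entries of which 5 were genomic control amplicons at 0 in all libraries. Per the labels' protocols, libraries came from RNA extracted from frozen tumors and were made with a QIAseq targeted RNA panel. Whether the deposited counts are reads or molecular tags, which aligner and which counter were used, is not given in the sources used here. The submitters' processing notes name mm9 and DESeq2 without a role. Amplicon positions are not printed, and promoters came from RefSeq (GRCm38.p6). Counts were fitted in R 4.3.3 with edgeR 4.0.16 (TMM, filterByExpr with minimum count 10 and minimum total 15, robust quasi-likelihood F test, Benjamini-Hochberg threshold 0.05 over all tested genes). DESeq2 1.42.0 and limma 3.58.1 were alternatives. DESeq2 adjusted p-values left undefined stayed undefined.

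Named genes were Kit and the mast cell list, the 12 genes of smallest p on each side with and without the library labelled Kit-W/sh tumor 2, genes without overlap, up to 6 members with the smallest p of each list, the 10 genes with the largest SD per genotype (mean of at least 20 CPM) and reference genes. Part of that set is named in the text. Selplg, Csf1, Il22, Arg1, Ms4a1, Chgb and Tnfsf4 fall outside it and were picked with their values known. The members and the 40 lists (425 of their 830 genes measured, 2 lists with no measured gene) were chosen with earlier results of these data known, and 6 lists (proteasome, Ceacam, lipid mediator, germline antigen, endothelin and amino acid) after the panel was seen. Lists are described by counts and medians without a test. All pairs of libraries within a genotype differed by more than counting noise (chi-square per degree of freedom of at least 41.52), so none was counted as a copy. Floors of 3 counts cover counting error only. Some items are not reported here.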

Additional observations from a re-analysis of the deposited data

Results flagged for a closer look

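For most of the genes named, 184 groups of 6 tumors were examined on the log2(CPM + 1) scale for a tumor lying far from the others, and 22 had one. Chance alone flags about 1 in 20 such groups, and these genes are not independent of each other. Kit-B6 tumor 4 accounted for 12 of the 22. It was far below the other Kit-B6 tumors for the chemokines Cxcl1 (37.2 CPM), Cxcl2 (41.6), Cxcl3 (12) and Cxcl5 (748 CPM). The same held for the receptors Cxcr2 (31.7 CPM), Fpr1 (2.19), Fpr2 (15.3) and Il1r2 (74.4 CPM). It also held for Itgam (48.1 CPM), Il1b (98.5 CPM), Il33 (179 CPM) and Csf2 (1.09 CPM). Kit-B6 tumor 2 was far from its group for the B cell genes Ms4a1 (269 CPM) and Bank1 (179 CPM), for Mef2c (223 CPM) and for Il22 (4.55 CPM, near the floor of 3 counts at 4.87 CPM). Kit-B6 tumor 5 had 555 CPM of Hpgds and Kit-B6 tumor 3 had 539 CPM of Hells. The library labelled Kit-W/sh tumor 2 stood apart for the mast cell genes Tpsab1 (57.8 CPM) and Ms4a2 (29.7 CPM) and for Srsf7 (268 CPM). Kit-W/sh tumor 4 had the lowest Fcgr3 of its group, at 473 CPM.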

How the results depend on the processing

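In 12 tumors edgeR called 0 genes under every alternative, each single tumor left out included, while DESeq2 called 27. Without the library labelled Kit-W/sh tumor 2, edgeR called 0 and the alternatives DESeq2 73, limma voom 27, all groups in 1 fit 32 and Kit-B6 tumors 4 and 5 summed 38. Leaving out a further tumor gave 0 to 27 calls, with 27 without Kit-W/sh tumor 1, 15 without Kit-B6 tumor 4 and 0 without any other. The cause was not tested. With the replicate number as a block, edgeR called 0 genes in 12 tumors and 0 without that library. Samples with the same number did not all deviate together (r = -0.15, 0.35, 0, -0.23, 0.36 and 0.13 for numbers 1 to 6, with 2, 5 and 6 correlating best with their own number), and the labels do not say that a number marks a shared animal or day, so the numbers were not taken to pair the tumors.

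Of 87 genes followed, 78 kept their direction. The other 9, with 1 tumor left out at a time, ranged for Cpa3 from -4.48 to 0.99, Tpsb2 -2.37 to 0.61, Cma1 -0.99 to 0.27, Pf4 -0.35 to 0.026, Csf1 -0.34 to 0.52, Arg1 -0.054 to 0.56 and B2m -0.17 to 0.21. Cpa3 (0.06) reversed with limma voom (-3.73), with the replicate block (-2.87), and without Kit-B6 tumor 1 (-0.018), 3 (-0.17), 4 (-0.23) or 6 (-0.13). Without Kit-B6 tumor 5, Tpsb2 was 0.61 and Pf4 0.026. With Kit-B6 tumors 4 and 5 summed, Cma1 was 0.091 and Epcam 0.006. Without Kit-B6 tumor 4, Cma1 was 0.27, Arg1 -0.054 and Epcam 0.009. Csf1 was 0.26 with the replicate block and 0.52 without Kit-B6 tumor 1. Limma voom gave Epcam 0.020, Car4 0.11 and B2m -0.040, and B2m was -0.026 without Kit-B6 tumor 3 and -0.17 without Kit-W/sh tumor 2. Mean log2(CPM + 1) differences without Kit-W/sh tumor 2, which was chosen on such genes, were -1.36 for Kit, -3.79 for Cpa3, -0.80 for Hpgds and -0.11 for Slc18a2 (exact permutation p = 0.00866, 0.00649, 0.0433 and 0.775). At log2(CPM + 5) Ms4a2 was 0.046. List medians without that library were -0.08 for other chemokines, 0.11 for endothelial, -0.17 for reference, -0.02 for macrophage, -0.27 for fibroblast, -0.52 for lipid mediator and -0.43 for germline antigen genes. Without Kit-B6 tumor 4 they were -0.28 for endothelial, -0.14 for macrophage, -0.44 for fibroblast, -0.21 for lipid mediator and -0.17 for germline antigen genes. Genes with the larger spread in Kit-B6 numbered 504 to 637 with 1 tumor left out. Total counts limit genes near the floor of 2.14 to 4.87 CPM.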
